A study of Mus musculus with 8 samples.

Results

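The respiratory chain genes were taken by symbol as the protein-coding mouse genes that start with Nduf, Uqcr, Atp5 or Cox followed by 4 to 8, together with the 13 protein-coding genes of the mitochondrial genome. This gave 103 genes of the 30284 with a value, 90 of them nuclear and 13 mitochondrial. The nuclear genes comprised 44 of complex I (7 core subunits on the electron path, 29 accessory subunits and 8 assembly factors), 8 of complex III, 20 of complex IV and 18 of complex V. The symbol Atp5o belongs to a pair of gene identifiers, ENSMUSG00000022956 and ENSMUSG00000116933, which were kept apart. RNA was sequenced from macrophages of male C57BL6 mice aged 7 weeks, in 8 libraries, 2 for each of 4 groups. By the labels the stimulus went into the peritoneum and the cells were peripheral macrophages. The first group had saline for 4 h and the second LPS for 4 h, that is lipopolysaccharide from the bacterial outer membrane, which TLR4 recognises. The others had IFNb (interferon beta, of the type I family) for 4 h, or IFNb for 4 h before LPS for 4 h, written LPS+IFNb. The last group was therefore collected 8 h after IFNb, and no group had IFNb and then saline, or saline and then LPS. All animals were of 1 background with no transgene or deletion named.

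The respiratory chain sits in the inner mitochondrial membrane. Complex I takes electrons from NADH and complex III passes them from coenzyme Q to cytochrome c, from which complex IV transfers them to oxygen, and the proton gradient built on the way drives ATP synthesis by complex V. Most subunits are encoded in the nucleus and imported, while a small central set, among them the catalytic subunits of complex IV, is transcribed inside the mitochondrion from its own genome, so that both genomes supply parts of the same enzymes. In macrophages, activation through TLR4 is known for a shift in energy metabolism from respiration towards glycolysis.

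Levels are in TPM, a length-corrected share of all transcripts with the same total in every library, summed over the transcripts of a gene. Depth is unknown for such values. A change is a difference of log2(TPM + 1), given ± SE from limma, and a gene was counted as higher or lower at an adjusted p under 0.05 over the 13009 genes tested, those that reached 1 TPM in 2 or more of the 8 libraries. Of the 103 genes 99 were tested, 86 nuclear and 13 mitochondrial. Those not tested were Cox4i2, the form of subunit 4 known from lung, at 0 to 0.241 TPM, Cox7b2, above 0 in LPS replicate 2 alone (0.165 TPM), and the striated muscle and testis forms of subunit 8, Cox8b and Cox8c, listed at 0 in all 8 libraries. Since TPM is a share, genes fall when others take more of the total, and all changes were also computed after dividing each library by its median ratio to the other libraries (median-ratio scaling). That scaling moved the median of all genes from -0.38 to 0.01 in LPS against saline, from -0.37 to -0.03 in IFNb against saline and from -0.61 to 0.01 in LPS+IFNb against saline. In bulk RNA, fewer cells of a type and less RNA per cell cannot be told apart. Separate animals are not named for the 2 libraries of a group, and p-values therefore reflect only how far these libraries differ, which may be technical. Groups without overlap are common in such data. As deposited both treated libraries were below both saline libraries in 57.9% (LPS), 56.9% (IFNb) and 63% (LPS+IFNb) of all genes tested. Both were above in 18.2%, 18.6% and 19.3%.

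The 10 macrophage markers summed to 14141 to 21843 TPM, from 19132 to 21843 in saline down to 14141 to 14310 after LPS+IFNb. These sums are shares of TPM, and the cause of the drop was not tested. Rescaled by the median ratio, the median change of the 10 genes against saline was 0.18 after LPS, 0.08 after IFNb and 0.36 after LPS+IFNb. Gata6 (0.862 to 2.11 TPM) and Timd4 (0.427 to 3.37 TPM), markers of resident large peritoneal macrophages, were close to the 1 TPM limit. Markers of other cells were lower: B cells 85.0 to 160 TPM over 6 genes, neutrophils 142 to 285 over 6, mast cells 26.9 to 47.1 over 5, T and NK cells 4.52 to 19.1 over 6, mesothelial cells 2.87 to 12.2 over 5 and erythroid cells 2.00 to 8.08 over 3, with no marker at 0 in all libraries. The B cell sum was 141 to 160 TPM in saline and 85.0 to 111 TPM in the 3 treated groups. After median-ratio scaling, the median change of its 6 genes against saline was -0.09 after LPS, -0.12 after IFNb and 0.11 after LPS+IFNb. The part of these marker levels in the results below was not tested.

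In saline the mitochondrial genes were far above the nuclear ones per length. Summed over the 13 mitochondrial genes the saline libraries held 39302 and 35712 TPM, against 13618 and 13205 TPM over the 90 nuclear genes. Among mitochondrial genes the highest saline mean was that of mt-Atp8, a complex V subunit (6275 ± 1177 TPM, SD, n = 2), and the lowest that of mt-Nd3 of complex I (577 ± 145 TPM). The highest nuclear means were those of Cox7b (1144 ± 237 TPM), Cox4i1, the common form of subunit 4 of complex IV (954 ± 74.8 TPM), and Atp5b, the catalytic beta subunit of ATP synthase (514 ± 20.8 TPM). Both rankings leave out near-identical copies elsewhere in the genome and depend on how shared reads were divided. In saline Gm29216, a copy of mt-Co1, held 6570 and 5666 TPM, and Gm12338, a copy of Cox7c, held 4841 and 5267 TPM. In every library 71 nuclear genes stood above 10 TPM and 33 above 100 TPM. Cox7b is an uncertain value: 0.657% to 2.36% of its TPM lay in protein-coding transcripts, and its 2 IFNb libraries were at 387 and 1202 TPM. Isoforms known from heart and muscle were low, with Cox6a2 at 0.343 to 2.24 TPM beside 146 to 191 TPM for the common form Cox6a1.

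All treated groups held less respiratory chain RNA than saline as a share of TPM. The nuclear sum was 10798 and 10719 TPM after LPS, 10303 and 11458 TPM after IFNb, and 9202 and 9000 TPM after LPS+IFNb, each below both saline libraries. Against the saline mean these group means changed by -19.8%, -18.9% and -32.1%. The mitochondrial sum was 33933 and 31129 TPM after LPS (-13.3%), 26152 and 28387 TPM after IFNb (-27.3%), and 25608 and 25221 TPM after LPS+IFNb (-32.2%), again below both saline libraries. Divided by the median-ratio size factor, the nuclear sums were 10731 and 9479 in saline, 11287 and 11033 after LPS, 10121 and 11367 after IFNb, and 11686 and 11118 after LPS+IFNb. On that scale IFNb overlapped saline, while LPS and LPS+IFNb lay above both saline libraries. The mitochondrial sums divided the same way were 30971 and 25637 in saline, 35472 and 32039 after LPS, 25690 and 28162 after IFNb, and 32522 and 31156 after LPS+IFNb, so that LPS and LPS+IFNb were again above saline.

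**Figure D1:**
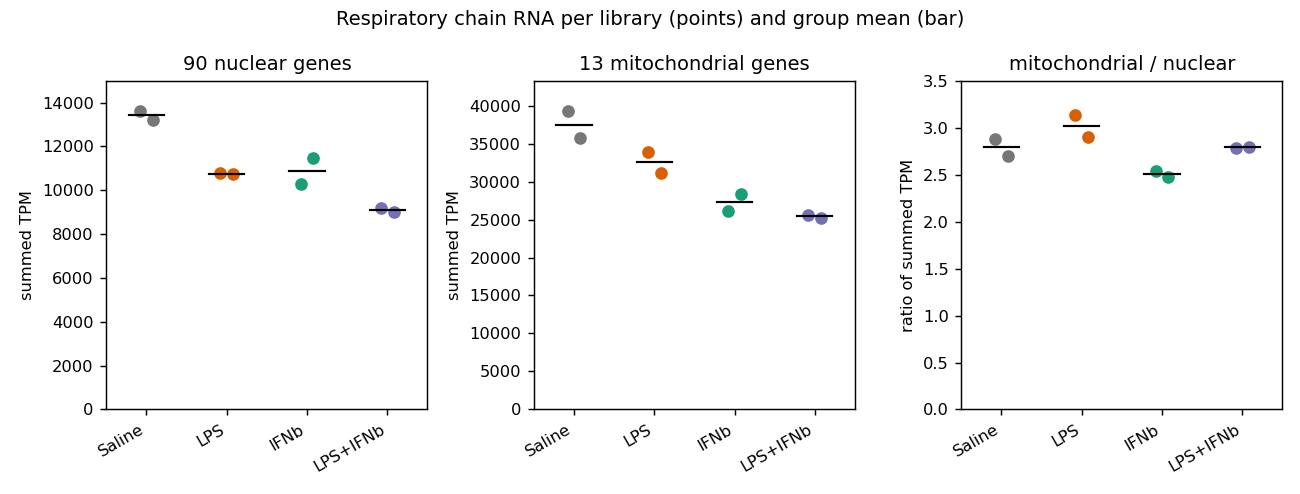
Summed TPM of the 90 nuclear and the 13 mitochondrial respiratory chain genes and their ratio in each of the 8 libraries (points; bars are group means, n = 2; all axes start at 0). Both sums are highest in saline, and the mitochondrial to nuclear ratio is lowest in the IFNb libraries (2.54 and 2.48).

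The ratio of the sets does not depend on the scaling of a library. Mitochondrial over nuclear TPM was 2.89 and 2.70 in saline, 3.14 and 2.90 after LPS, 2.54 and 2.48 after IFNb, and 2.78 and 2.80 after LPS+IFNb. Both IFNb libraries were below the other 6, both LPS libraries were above saline, and the LPS+IFNb libraries lay between the saline values. As log2 of nuclear over mitochondrial the group values were -1.48 in saline, -1.60 after LPS, -1.33 after IFNb and -1.48 after LPS+IFNb. A ratio over a chosen set is given here as a description, without a test. IFNb had the highest and LPS the lowest of the 4 values also with near-copies elsewhere in the genome added to their genes (-1.07 and -1.25) and with protein-coding transcripts alone (-1.97 and -2.21). Near-copies were added as TPM, which is per length, so a copy shorter than its gene weighs more per read in these sums. By library, LPS replicate 2 did not stay above both saline libraries, with a mitochondrial over nuclear ratio of 2.33 beside 2.35 in Saline replicate 1 with near-copies added, and 4.42 beside 4.60 with protein-coding transcripts alone.

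The first comparison sets LPS beside saline, both at 4 h. Complex I genes made up most of the nuclear genes that were lower. None of the 86 nuclear genes was higher and 40 were lower, beside 12.8% of all genes higher and 41.3% lower, and the median change was -0.34 against -0.38 over all genes. Of 44 complex I genes 29 were lower, including all 7 core subunits, 17 of 29 accessory subunits and 5 of 8 assembly factors, against 3 of 8 in complex III, 1 of 16 in complex IV and 7 of 18 in complex V. Of the 13 mitochondrial genes 2 were lower, mt-Nd5 (-0.26 ± 0.09, adjusted p = 0.0467 by limma) and mt-Nd6 (-0.25 ± 0.08, adjusted p = 0.0404 by limma), with a median of -0.24. After median-ratio scaling 6 nuclear genes were higher and 2 lower (all genes 20.9% and 17.3%), no mitochondrial gene passed, and the complex I median was 0.05 in place of -0.41. Leaving out Saline replicate 1, LPS replicate 1 or LPS replicate 2 took the 42 calls to 22, 21 and 24.

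Ndufaf1, an assembly factor for complex I, was at 12 and 11.7 TPM in saline and 4.92 and 5.77 TPM after LPS. The groups did not overlap, as in 57.9% of all genes tested in this direction, and the gene fell by 1.03 ± 0.18 (adjusted p = 0.00358 by limma). It is 1 of the pair that stayed lower under median-ratio scaling (-0.61). The other was Atp5s, a coupling factor of ATP synthase, at 5.47 and 5.24 TPM in saline and 1.45 and 2.39 TPM after LPS (-1.14 ± 0.22, rescaled -0.77), which lies outside the naming rule and was chosen after its values were seen. Ndufs1, the largest core subunit of complex I, was at 73.2 and 71.0 TPM in saline and 38.7 and 52.1 TPM after LPS (-0.67 ± 0.14, rescaled -0.21 and not passing). The other large falls were those of the assembly factor Ndufaf8 (-0.76 ± 0.19), whose call was lost without either saline library or LPS replicate 2, and of the membrane-arm subunit Ndufb10 (-0.61 ± 0.08). On the rescaled values the 6 that were higher belonged to complex IV (Cox5a 0.36, Cox6a1 0.38 and Cox6b1 0.35) and complex V (Atp5b 0.51, Atp5g3 0.41 and Atp5d 0.40). As deposited Atp5b was 0.05 ± 0.07, and the other 5 were between -0.12 and -0.06.

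The second comparison sets IFNb beside saline, both at 4 h. Of 13 mitochondrial genes 10 were lower, beside 38.6% of all genes lower, with a median of -0.54 against -0.37 over all genes. After median-ratio scaling none passed and their median was -0.14. Of the 86 nuclear genes 39 were lower and 1 was higher (all genes 13% higher), with a median of -0.30, and rescaled 8 were higher and 6 lower (all genes 18.7% and 14.9%). The falls covered 21 of 44 nuclear genes of complex I, 4 of 8 of complex III, 4 of 16 of complex IV and 10 of 18 of complex V. Without IFNb replicate 1 there were 26 calls in place of 50, and without Saline replicate 1 there were 32.

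The mitochondrial genes fell unequally. mt-Cytb, the cytochrome b subunit of complex III, was at 1928 and 1693 TPM in saline and 1074 and 1192 TPM after IFNb. There was no overlap, as in 56.9% of all genes tested in this direction. The gene fell by 0.68 ± 0.09 (adjusted p = 0.00158 by limma, rescaled -0.28 and not passing). Of the 7 complex I genes 6 fell, from mt-Nd2 (-0.63 ± 0.12), mt-Nd4l (-0.62 ± 0.12) and mt-Nd5 (-0.58 ± 0.09) to mt-Nd4 (-0.55 ± 0.10), mt-Nd6 (-0.54 ± 0.08) and mt-Nd1 (-0.53 ± 0.09), all of them with the sign kept but no call after rescaling. The complex IV genes mt-Co1 (-0.23 ± 0.10, adjusted p = 0.0862 by limma) and mt-Co2 (-0.24 ± 0.14, adjusted p = 0.204 by limma) did not pass, and both turned positive when rescaled (0.16 and 0.15). With its near-copies added mt-Co2 passed (-0.30 ± 0.09). mt-Nd3 did not pass either (-0.28 ± 0.18, rescaled 0.11), but with its near-copy Gm28438 added it was at -0.91 ± 0.10 (adjusted p = 0.000651 by limma) and stayed lower when rescaled (-0.52). mt-Co3 (-0.45 ± 0.09) and the complex V genes mt-Atp6 (-0.45 ± 0.12) and mt-Atp8 (-0.57 ± 0.19) fell, with rescaled values of -0.06, -0.06 and -0.18 that did not pass. mt-Atp8 overlaps mt-Atp6, mt-Nd4l overlaps mt-Nd4 and mt-Nd6 lies on the opposite strand, and whether counting used strand is not given in the sources used here, so these values are uncertain.

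**Figure D2:**
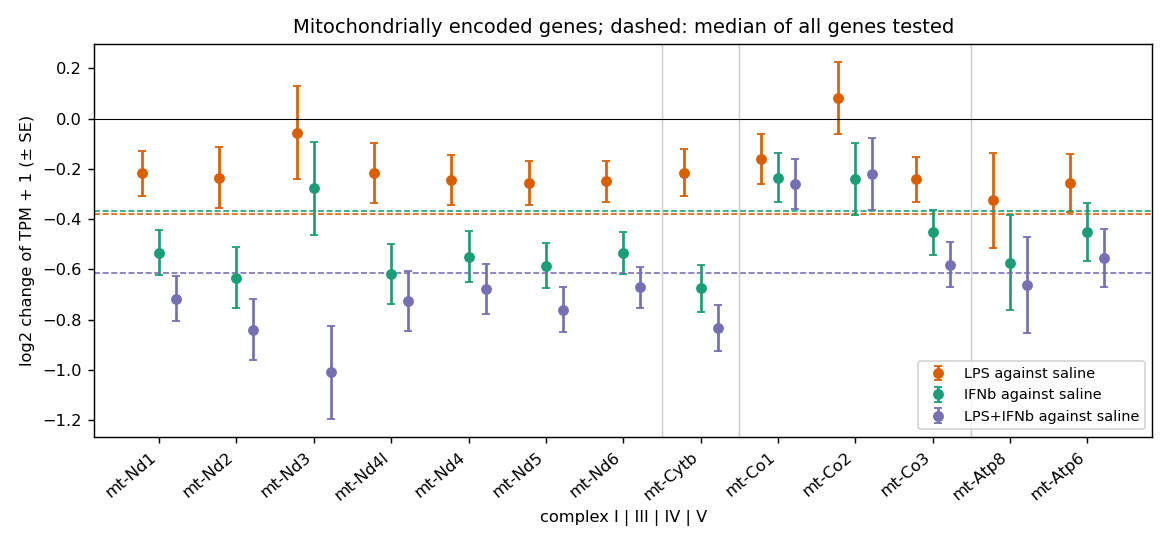
Change against saline of the 13 mitochondrially encoded genes (points ± SE from limma, log2 scale, TPM as deposited) ordered by complex, with the median of all 13009 genes dashed in the colour of each comparison. With IFNb and LPS+IFNb mt-Co1 and mt-Co2 lie above the all-gene median, while mt-Cytb and mt-Nd2 lie below it.

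The make-up of the mitochondrial set can be read without any scaling. The summed TPM of the 7 mt-Nd genes over that of the 3 mt-Co genes was 0.80 and 0.85 in saline, 0.74 and 0.77 after LPS, 0.67 and 0.72 after IFNb, and 0.61 and 0.65 after LPS+IFNb. Every treated library was below both saline libraries, and the groups followed each other without overlap. mt-Cytb over mt-Co1 was 0.41 and 0.42 in saline, 0.38 and 0.41 after LPS, 0.29 and 0.32 after IFNb, and 0.28 and 0.28 after LPS+IFNb. Chromosome 1 carries near-identical copies of this stretch, and with the copies added the first ratio became 0.55 and 0.55 in saline, 0.54 and 0.50 after LPS, 0.41 and 0.46 after IFNb, and 0.39 and 0.43 after LPS+IFNb. The 4 libraries given IFNb, alone or before LPS, remained below the other 4 in both forms of the ratio. Some copies, such as Gm29216, are shorter than their gene and were added as TPM. The level of the ratio with copies added therefore depends on copy length. These ratios were chosen after the values were seen and carry no test.

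Among nuclear genes the largest falls after IFNb that the rule names were those of Cox7a2l, Ndufs8 and Ndufa6. Cox7a2l (chr17:83501918-83517330, minus strand, GRCm38) is known as a factor for joining complexes III and IV into supercomplexes. Neither its protein, its allele in these mice nor any supercomplex was examined here. Its RNA was at 263 and 247 TPM in saline, 171 and 184 TPM after LPS, 145 and 122 TPM after IFNb and 136 and 111 TPM after LPS+IFNb. All treated libraries were below saline, and the IFNb change of -0.93 ± 0.13 (adjusted p = 0.00172 by limma) still passed when rescaled (-0.54). Ndufs8, a core iron-sulphur subunit of complex I (chr19:3908863-3912774, minus strand, GRCm38), was at 40.7 and 41.0 TPM in saline, 27.6 and 27.9 TPM after LPS, 21.9 and 23.7 TPM after IFNb and 16.4 and 18.0 TPM after LPS+IFNb. The 4 groups did not overlap, and its IFNb change was -0.81 ± 0.10 (adjusted p = 0.000836 by limma, rescaled -0.43 and passing). Ndufa6, an accessory subunit, fell by 0.74 ± 0.15 (rescaled -0.35, not passing). The single rise was that of Cox6a2, the heart and muscle form of subunit 6a (0.818 and 1.06 TPM in saline, 1.79 and 2.24 TPM after IFNb, 0.64 ± 0.20, adjusted p = 0.0387 by limma), a low gene whose fold change the pseudocount of 1 understates.

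Some nuclear genes had IFNb values above saline as deposited. Cox5a, a structural subunit of complex IV, was at 172 and 164 TPM in saline and 192 and 205 TPM after IFNb (0.24 ± 0.09, adjusted p = 0.0563 by limma). Atp5f1, subunit b of the stalk of ATP synthase, was at 191 and 159 TPM in saline and 210 and 211 TPM after IFNb (0.27 ± 0.10, adjusted p = 0.063 by limma). Over the 8 libraries only 10.15% to 16.8% of Atp5f1 TPM lay in protein-coding transcripts. Its values here and below are therefore uncertain and do not show a rise of its coding RNA. Ndufs3, a core subunit of complex I, was at 123 and 125 TPM in saline and 136 and 143 TPM after IFNb (0.17 ± 0.14, adjusted p = 0.335 by limma). None of the 3 passed as deposited, and all of them were higher after median-ratio scaling, at 0.63, 0.66 and 0.56. The other rescaled rises were Cox6a2 (0.81), Ndufaf5 (0.61), Ndufs4 (0.59), Cox7a2 (0.44) and Ndufs5 (0.41), and the 6 rescaled falls were Atp5g2 (-1.28), Atp5s (-1.01), Ndufaf4 (-0.92), Ndufaf7 (-0.75), Cox7a2l and Ndufs8. With its near-copy Gm10175 added, Atp5g2 was at -0.14 when rescaled and did not pass. Ndufaf4, Ndufaf5, Ndufaf7 and Ndufs5 lie outside the naming rule and are given because these lists are complete.

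LPS+IFNb against saline gave the most calls of the 3 comparisons with saline on TPM as deposited. Saline was given once for 4 h, so the stimuli cannot be told apart from the second treatment and the added 4 h. Of the 86 nuclear genes 73 were lower and none higher, beside 54.1% of all genes lower and 15.2% higher, and 11 of the 13 mitochondrial genes were lower. The median changes were -0.61 for nuclear and -0.68 for mitochondrial genes, against -0.61 over all genes, so a larger share of the set than of all genes passed while the medians were close. Lower genes made up 40 of 44 in complex I, all 8 in complex III, 9 of 16 in complex IV and 16 of 18 in complex V. After median-ratio scaling 11 nuclear genes were higher and 9 lower (all genes 27.4% and 25.2%), and 1 mitochondrial gene, mt-Co1, was higher (0.48). Upper-quartile scaling gave 38 calls in place of 84.

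**Figure D3:**
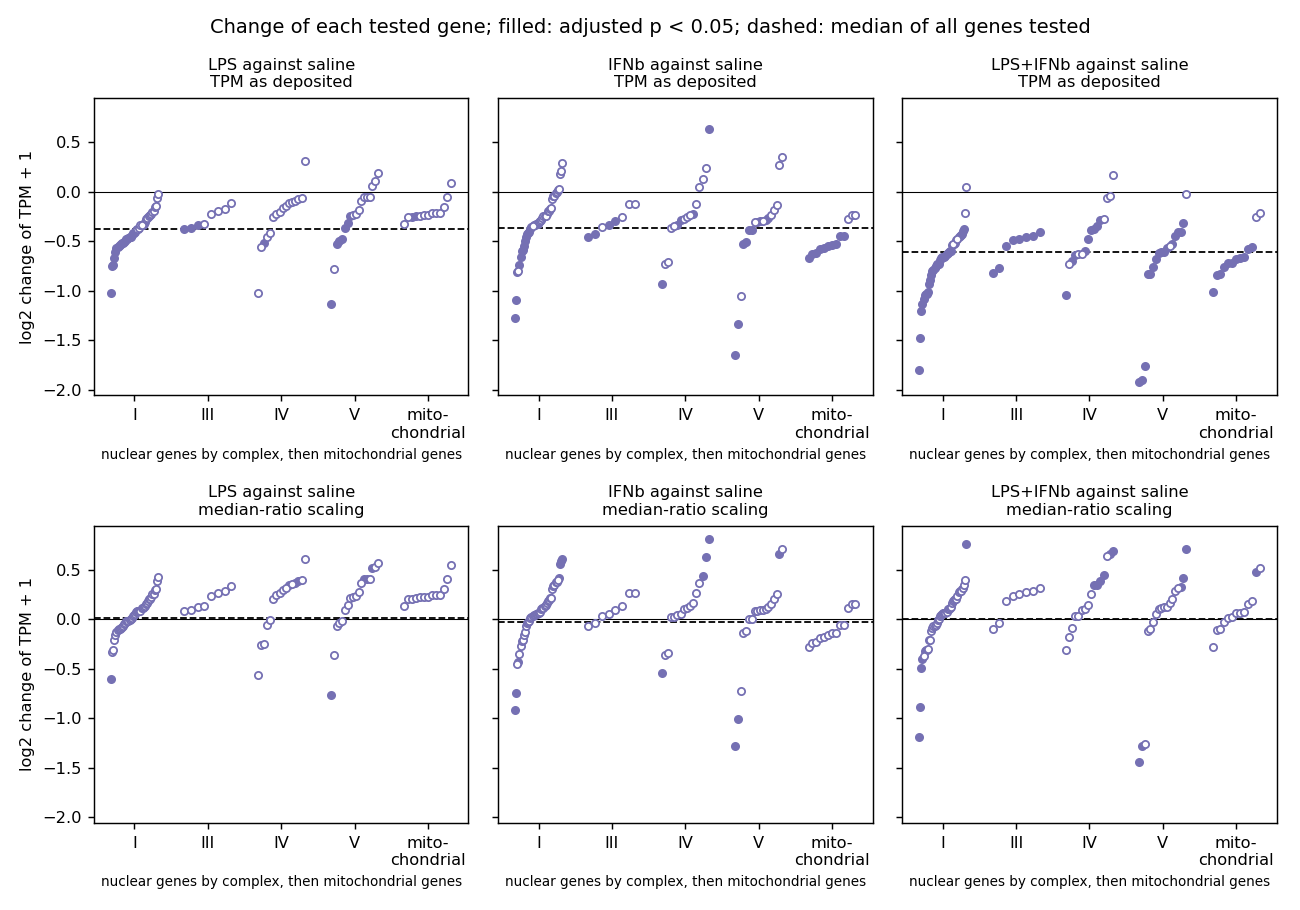
Change against saline of each tested nuclear gene by complex and of the 13 mitochondrial genes (points ordered by value, filled at an adjusted p under 0.05 by limma), with TPM as deposited above and after median-ratio scaling below; the dashed line is the median of all 13009 genes. As deposited nearly all points lie below 0 and around the dashed line, and after scaling they lie on both sides of 0.

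What differed within the chain was which genes lay away from the common shift. Complex I, with 44 of the 86 nuclear genes tested, gave most of the rescaled falls. They were a smaller share of complex I than the 25.2% of all genes that were lower on this scale. The assembly factors among them were Ndufaf4 (-1.19) and Ndufaf7 (-0.89), and the core subunits Ndufs8 (-0.49), Ndufs7 (-0.32) and Ndufv1 (-0.31). The membrane-arm subunits were Ndufb10 (-0.41) and Ndufb11 (-0.31). Complex V gave the falls of Atp5s (-1.44) and Atp5g2 (-1.28). Atp5g2 did not pass with its near-copy added (-0.14 rescaled). The rescaled rises held 6 subunits of complex IV, Cox5a (0.69), Cox7a2 (0.66), Cox6c (0.45), Cox6a1 (0.39), Cox8a (0.35) and Cox5b (0.34), and 3 of complex V, Atp5f1 (0.70), Atp5b (0.42) and Atp5g3 (0.33). Complex I gave Ndufs4 (0.76) and Ndufa1 (0.30). Most Atp5f1 TPM lay outside protein-coding transcripts, so its rise is uncertain. These lists are complete, and the genes in them outside the naming rule were named after their values were seen. No complex III gene passed when rescaled. Whether 1 complex changed more than another was not tested. Of the genes that were higher when rescaled, all but Ndufs4 had a negative sign as deposited, and none was higher there.

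Ndufaf4, an assembly factor for complex I, was at 11 and 11.5 TPM in saline, 8.12 and 6.97 TPM after LPS, 3.95 and 4.15 TPM after IFNb and 2.92 and 2.16 TPM after LPS+IFNb. The 4 groups did not overlap. For LPS+IFNb and saline alone, 63% of all genes tested had no overlap in this direction. The change of Ndufaf4 after LPS+IFNb was -1.80 ± 0.15 (adjusted p = 0.000108 by limma), the largest of any complex I gene in the set on either scale. Ndufaf7, another assembly factor for complex I, went from 7.88 and 8.56 TPM in saline to 2.29 and 2.31 TPM after LPS+IFNb (-1.48 ± 0.21, adjusted p = 0.000808 by limma). Both are low, so their folds are understated on this scale.

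Ndufs8 had the largest fall by the naming rule in LPS+IFNb against saline, -1.20 ± 0.10 (adjusted p = 8.17e-05 by limma), with all 8 leave-one-out fits between -1.27 and -1.14. Ndufb10, an accessory subunit of the membrane arm, was at 99.8 and 102 TPM in saline, 64.6 and 66.4 TPM after LPS, 70.8 and 75.2 TPM after IFNb and 43.8 and 47.2 TPM after LPS+IFNb. Both single treatments lay between saline and the combination, and the change after LPS+IFNb was -1.13 ± 0.08 (adjusted p = 5.73e-05 by limma). Cox7a2l fell by 1.05 ± 0.13 and the membrane-arm subunit Ndufb4 by 1.08 ± 0.18, with rescaled values of -0.32 and -0.37 that did not pass. Further central subunits fell too: Ndufv1, which binds NADH (-1.03 ± 0.10), Ndufs1 (-0.79 ± 0.14), the complex III core protein Uqcrc1 (-0.49 ± 0.11), the Rieske iron-sulphur protein Uqcrfs1 (-0.40 ± 0.10), Cox4i1 (-0.60 ± 0.12), the ATP synthase alpha subunit Atp5a1 (-0.45 ± 0.10) and Atp5b (-0.31 ± 0.07). Rescaled, Ndufv1 (-0.31) was lower, Atp5b was higher, Ndufs1 was at -0.07 and the other 4 between 0.14 and 0.32 without passing.

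In contrast Ndufs4, an accessory subunit of the NADH-binding module, was at 40.8 and 33.1 TPM in saline, 29.4 and 28.3 TPM after LPS, 40.4 and 45.0 TPM after IFNb and 36.2 and 39.6 TPM after LPS+IFNb. The LPS+IFNb values lay within the saline range, and the change was 0.04 ± 0.13 (adjusted p = 0.785 by limma, rescaled 0.76 with adjusted p = 0.00558 by limma). Cox5a was at 156 and 170 TPM after LPS+IFNb (-0.04 ± 0.09, adjusted p = 0.685 by limma, rescaled 0.69 with adjusted p = 0.00181 by limma). Atp5f1 was at 167 and 175 TPM after LPS+IFNb (-0.03 ± 0.10, adjusted p = 0.832 by limma) and Cox7a2, the common form of subunit 7a, at 121 and 113 TPM beside 131 and 115 TPM in saline (-0.07 ± 0.09, adjusted p = 0.519 by limma). As deposited none of these 4 passed in this comparison, where 84 of the 99 genes were lower. For Atp5f1 the part in protein-coding transcripts was 11.3% and 16.8% in saline and 11.6% and 10.15% after LPS+IFNb. The signs of Ndufs4, Cox5a, Atp5f1 and Cox7a2 as deposited each turned when 1 of the saline or LPS+IFNb libraries was left out.

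**Figure D4:**
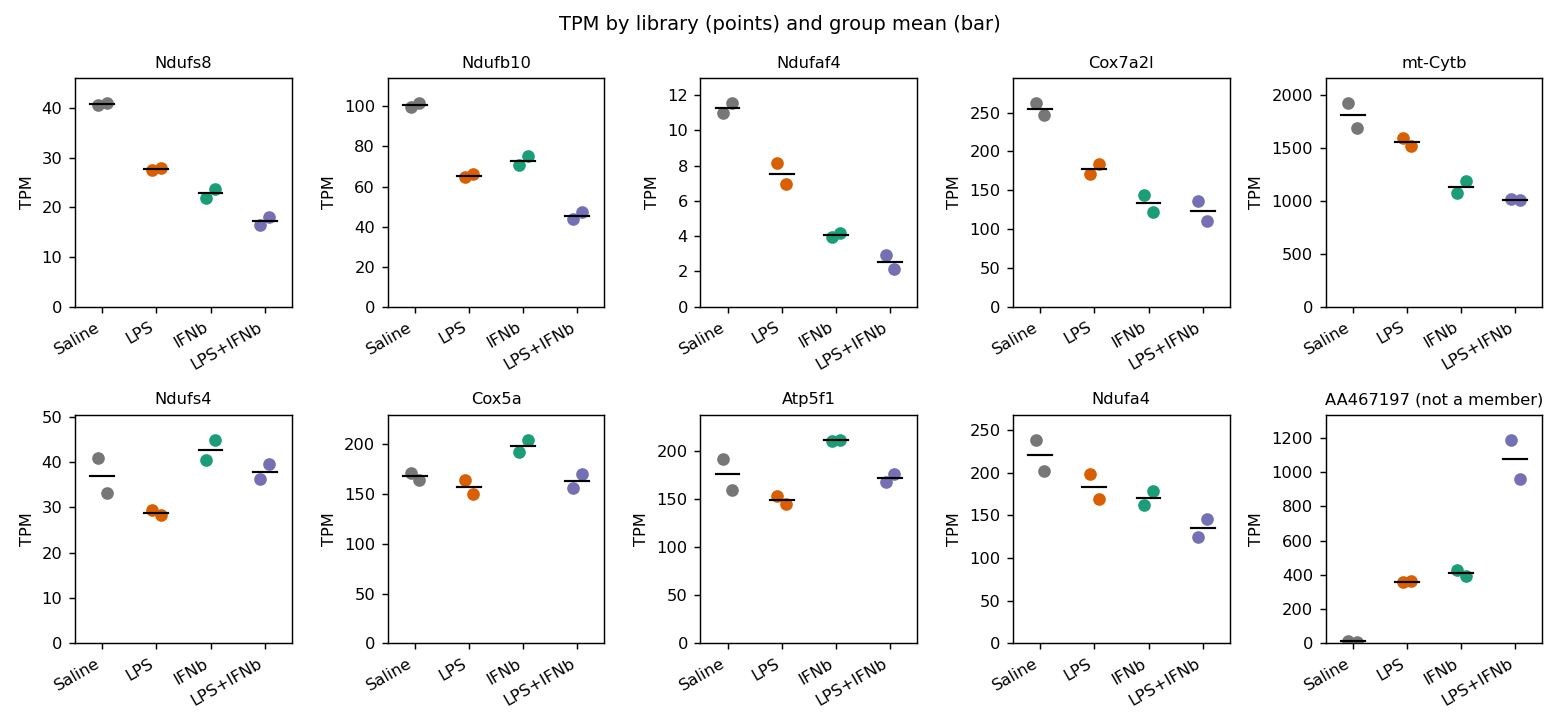
TPM in each of the 8 libraries (points; bars are group means, n = 2; axes start at 0) of 9 respiratory chain genes and of AA467197. Ndufs8 and Ndufaf4 step down from saline to LPS+IFNb without overlap, Ndufs4, Cox5a and Atp5f1 do not, and AA467197 is the only one of the 10 that is higher in all treated libraries.

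Promoters from RefSeq (GRCm38.p6, 250 bases before to 50 after the start) were matched for 73 of the 90 nuclear genes, giving 78 promoters. Nuclear respiratory genes are known for sites of NRF1, of ETS factors such as GABP and of YY1. The NRF1 motif GCGCNTGCG, searched on both strands, was in 30.8% of these promoters against 6.3% of all 32817 promoters, the ETS motif CCGGAAG in 20.5% against 8.86%, and the YY1 motif AANATGGCG in 14.1% against 2.37%. At least 1 of the 3 was in 43 of the 78 (55.1%, against 15.5% of all promoters). Each motif was searched separately, so matches may overlap, and a match is a description of the letters only. The NRF1 motif had been shortened by 1 base after a first search was seen, which also enters the combined share. All promoters were not matched to these 78 for base content. The promoters of 2 genes that were lower and 2 that were higher after rescaling after LPS+IFNb are shown 5′ to 3′ for comparison, chosen after their values were seen, with motif matches in capitals.
Ndufaf4, chr4:24897833-24898132, plus strand: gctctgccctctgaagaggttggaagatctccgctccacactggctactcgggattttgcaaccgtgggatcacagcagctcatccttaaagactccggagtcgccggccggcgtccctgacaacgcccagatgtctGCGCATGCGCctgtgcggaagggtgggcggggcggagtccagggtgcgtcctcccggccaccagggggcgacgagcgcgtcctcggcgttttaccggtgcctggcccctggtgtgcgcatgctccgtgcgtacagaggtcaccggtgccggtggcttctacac
Ndufs8, chr19:3912725-3913024, minus strand: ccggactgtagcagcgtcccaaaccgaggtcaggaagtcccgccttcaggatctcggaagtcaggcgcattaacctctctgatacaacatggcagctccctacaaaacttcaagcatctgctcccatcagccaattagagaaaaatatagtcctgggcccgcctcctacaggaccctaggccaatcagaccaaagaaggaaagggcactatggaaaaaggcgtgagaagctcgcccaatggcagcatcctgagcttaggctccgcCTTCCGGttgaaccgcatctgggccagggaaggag
Ndufs4, chr13:114388045-114388344, minus strand: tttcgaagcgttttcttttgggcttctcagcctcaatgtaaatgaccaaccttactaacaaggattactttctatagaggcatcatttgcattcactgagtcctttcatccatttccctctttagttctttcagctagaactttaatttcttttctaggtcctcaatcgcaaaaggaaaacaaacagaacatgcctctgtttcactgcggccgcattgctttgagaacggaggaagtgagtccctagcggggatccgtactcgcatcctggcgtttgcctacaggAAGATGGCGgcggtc
Cox5a, chr9:57520982-57521281, plus strand: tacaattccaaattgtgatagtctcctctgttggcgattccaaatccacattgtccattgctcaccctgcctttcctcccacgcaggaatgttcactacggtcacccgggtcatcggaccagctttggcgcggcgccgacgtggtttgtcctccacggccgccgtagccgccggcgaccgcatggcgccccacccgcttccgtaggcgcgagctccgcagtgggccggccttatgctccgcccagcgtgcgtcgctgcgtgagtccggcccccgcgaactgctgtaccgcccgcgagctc
Ndufaf4 holds the NRF1 motif on both strands at overlapping positions, Ndufs8 1 ETS match read from the other strand, Ndufs4 1 YY1 match and Cox5a none. Neither pair shared a motif within these 4 windows, but other genes of the rescaled lists did. Each of the 3 motifs occurred in genes of both lists. Besides Ndufaf4, NRF1 matched in Ndufb10 and Atp5g2 (lower) and in Cox6a1 and Atp5g3 (higher). Besides Ndufs4, YY1 matched in Atp5b (higher) and in Ndufs7 and Ndufb11 (lower). Besides Ndufs8, ETS matched in Cox6a1 and Cox8a (higher).

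LPS+IFNb against LPS sets IFNb before LPS beside LPS alone. Both groups were collected 4 h after LPS, but no group had saline for 4 h before LPS. IFNb therefore cannot be told apart from the added treatment and time. Of the 86 nuclear genes 35 were lower and none higher, and of the 13 mitochondrial genes 9 were lower, beside 24.1% of all genes lower and 10.8% higher, with medians of -0.29 and -0.43 against -0.22 over all genes. All 7 mt-Nd genes and mt-Cytb were among the 9, and mt-Co3 was the other. By the naming rule the largest falls were those of mt-Nd3 (-0.95 ± 0.18), of Atp5g1, which encodes the rotor c subunit (-0.74 ± 0.22), of Ndufb4 (-0.72 ± 0.18) and of Ndufs8 (-0.66 ± 0.10). Of these Ndufs8 kept its call in all 8 leave-one-out fits. The call of mt-Nd3 was lost without LPS replicate 1 or LPS+IFNb replicate 1, that of Ndufb4 when any 1 of the 4 libraries compared was left out, and that of Atp5g1 without either LPS library, either IFNb library or LPS+IFNb replicate 1. Rescaled, 2 genes were higher, Ndufs4 (0.65) and Atp5f1 (0.47), and 3 lower, Ndufaf4 (-1.08), Ndufs8 (-0.40) and the Atp5o identifier ENSMUSG00000116933 (-1.83), while all genes gave 15.3% and 10.5%. The 44 calls fell to 17, 14, 18 and 17 without LPS replicate 1, LPS replicate 2, LPS+IFNb replicate 1 and LPS+IFNb replicate 2, and to 28 with no filter on low values.

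LPS+IFNb against IFNb sets IFNb and then LPS beside IFNb alone. The groups were collected 8 h and 4 h after IFNb, so the added LPS and the added time cannot be told apart. In this comparison 34 of 86 nuclear genes were lower and 1 of 13 mitochondrial genes, mt-Nd3 (-0.73 ± 0.18), beside 30.5% of all genes lower and 8.76% higher. The medians were -0.34 and -0.13 against -0.30 over all genes. Complex I held 24 of the 34, with Ndufb4 (-0.89 ± 0.18) and Ndufa5 (-0.68 ± 0.13) the largest by the naming rule, and Atp5l, subunit g of ATP synthase, fell by 0.91 ± 0.26. Over the 8 libraries the near-copy Ndufb4c held 72.4% to 80.4% of the TPM of its pair with Ndufb4. The size of the Ndufb4 fall may therefore depend on how shared reads were divided. Neither mt-Nd3 nor Atp5l passed with its near-copy added, at -0.26 ± 0.10 (adjusted p = 0.0815 by limma) and -0.15 ± 0.07 (adjusted p = 0.128 by limma). The call of Atp5l was lost when any 1 of the LPS or IFNb libraries was left out, that of mt-Nd3 when any 1 of the 4 libraries compared was left out, that of Ndufb4 without either IFNb library or LPS+IFNb replicate 2, and that of Ndufa5 without IFNb replicate 2. Rescaled, Atp5b was higher (0.33) and Ndufb10 (-0.33) and Cox6a2 (-0.78) were lower, beside 13.7% and 10.9% of all genes. The 35 calls depended on single libraries, with 16 without IFNb replicate 1, 3 without IFNb replicate 2, 12 without LPS+IFNb replicate 1 and 13 without LPS+IFNb replicate 2.

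LPS against IFNb sets the single treatments side by side. Of the 13 mitochondrial genes 6 were higher after LPS and none lower, with a median of 0.31, and all 13 had a positive sign. Of the 86 nuclear genes 5 were higher and 7 lower with a median of 0.02, beside 16.6% and 22.1% of all genes. The 6 were mt-Cytb (0.46 ± 0.09, adjusted p = 0.0086 by limma), mt-Nd4l (0.40 ± 0.12), mt-Nd2 (0.40 ± 0.12), mt-Nd5 (0.33 ± 0.09), mt-Nd1 (0.32 ± 0.09) and mt-Nd6 (0.29 ± 0.08). After median-ratio scaling the median was 0.38 and 3 of them passed, mt-Cytb (0.53), mt-Nd4l (0.47) and mt-Nd5 (0.40), beside 4 nuclear genes higher and 6 lower (all genes 18.6% and 20.1%). The nuclear genes that were lower after LPS were Cox6a2, Ndufaf1 (-0.78 ± 0.18), Ndufs3 (-0.63 ± 0.14), Ndufs4 (-0.55 ± 0.13), Atp5f1 (-0.50 ± 0.10), Ndufb9 (-0.47 ± 0.10) and Cox5a (-0.34 ± 0.09), and the 5 higher were Ndufaf4 (0.76 ± 0.15), Cox7a2l (0.41 ± 0.13), Atp5b (0.35 ± 0.07), Ndufa2 and Atp5g3. The call of mt-Cytb was lost without LPS replicate 1 or IFNb replicate 1, that of Ndufaf1 without LPS replicate 1 or IFNb replicate 2, those of Ndufs3 and Atp5f1 without LPS replicate 2 or IFNb replicate 2, and that of Ndufs4 without LPS replicate 1, LPS replicate 2 or IFNb replicate 2. Those of Cox7a2l and mt-Nd2 were lost in 6 of 8 leave-one-out fits and that of mt-Nd4l in 5. Without LPS replicate 1, LPS replicate 2, IFNb replicate 1 or IFNb replicate 2 the 18 calls became 7, 7, 9 and 7, and 11 with no filter.

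The interaction asks whether LPS+IFNb differs from the sum of both single changes, within the limit that the combined group was collected later. None of the 99 genes passed with limma, beside 7.96% of all genes (rescaled also none, beside 6.92%). An unadjusted p under 0.05 by limma was found for 4 of the 99, beside 3059 of the 13009 genes tested. The 4 were Atp5l (-1.02 ± 0.37), Atp5j (0.38 ± 0.14), Ndufb8 (-0.42 ± 0.15) and mt-Nd3 (-0.68 ± 0.26). Their smallest adjusted p was 0.16. Without Saline replicate 1, Ndufb4 and mt-Nd3 passed (-0.80 and -0.94), and without LPS+IFNb replicate 1, Atp5l passed (-1.45). With near-copies added and all libraries kept, the interaction was 0.18 ± 0.10 for Atp5l, 0.03 ± 0.14 for mt-Nd3 and -0.18 ± 0.19 for Ndufb4, and none of the 3 had an unadjusted p under 0.05. The median interaction was 0.01 over the 99 genes. A p that misses the threshold does not show that the changes add.

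Several values depend on how reads shared with near-copies were divided. Of the 103 genes 42 had a transcript elsewhere in the annotation with at least 90% identity over at least 60% of its length and a TPM above 0, and 6 such copies stood above their own gene. Gm12338, a processed pseudogene of Cox7c on chromosome 11, held 3377 to 5267 TPM beside 59.5 to 107 TPM for Cox7c, subunit 7c of complex IV. Gm10221 held 417 to 628 TPM beside 4.87 to 13.9 TPM for Atp5l, and Gm10175 held 149 to 299 TPM beside 2.03 to 19.2 TPM for Atp5g2. On chromosome 1 a copy of part of the mitochondrial genome gave Gm29216 4966 to 6570 TPM beside 3626 to 4689 TPM for mt-Co1. Cox6c2, an intronless copy on chromosome 12, held 461 to 725 TPM beside 168 to 231 TPM for Cox6c. Over 231 bases of coding sequence Cox6c and Cox6c2 differ at 7, a 97% identity, and their first 90 bases (GENCODE M21, 5′ to 3′, the 6 differing bases in capitals) hold all but 1 of the differences.
Cox6c: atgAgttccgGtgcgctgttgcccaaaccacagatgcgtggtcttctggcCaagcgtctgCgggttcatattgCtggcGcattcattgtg
Cox6c2: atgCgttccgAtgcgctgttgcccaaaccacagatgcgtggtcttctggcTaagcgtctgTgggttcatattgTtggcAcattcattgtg
Adding each copy to its gene changed the LPS+IFNb value of Atp5g2 from -1.90 to -0.87 ± 0.10 and gave Atp5l a fall of 0.54 ± 0.07 in place of -0.55 ± 0.26 (adjusted p = 0.0979 by limma). Cox7c went from -0.64 to -0.53 ± 0.08, and the IFNb value of mt-Nd3 from -0.28 to -0.91 ± 0.10 (adjusted p = 0.000651 by limma). Its copy Gm28438 held 224 and 384 TPM in saline but at most 0.773 TPM after IFNb. mt-Co1 with its copy was at -0.23 ± 0.10 after LPS+IFNb and did not pass either way. All copies were added as TPM without regard to length. The sums are therefore not the values that returning shared reads to the gene would give.

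**Figure D5:**
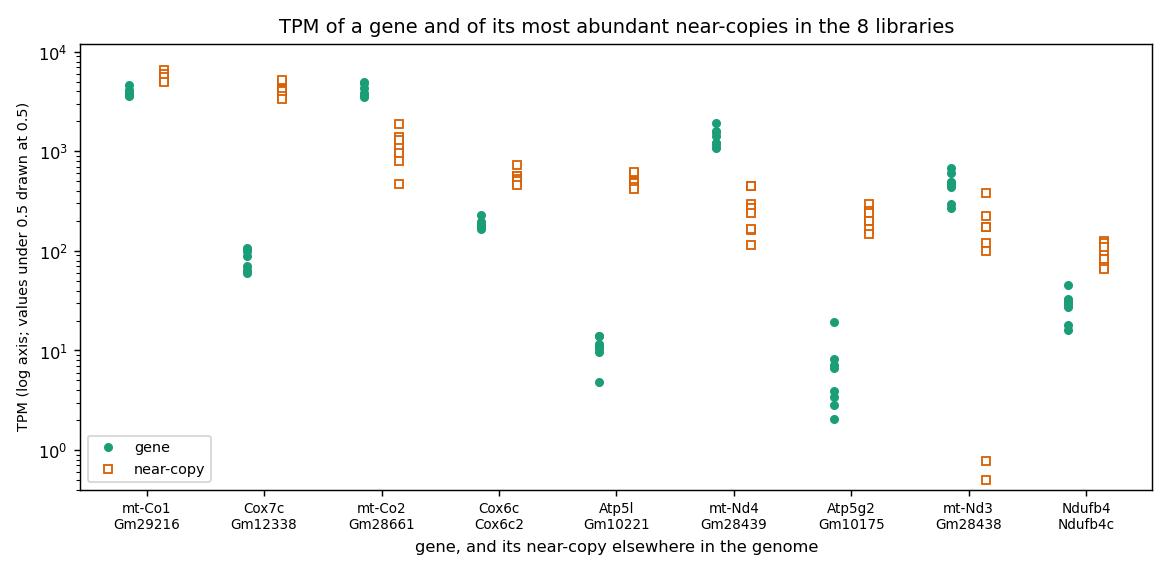
TPM (log axis) of 9 respiratory chain genes (filled circles) and of a near-copy of each (open squares) in the 8 libraries. For mt-Co1, Cox7c, Cox6c, Atp5l, Atp5g2 and Ndufb4 the copy lies above the gene, and the 2 IFNb libraries hold almost no Gm28438, the copy of mt-Nd3.

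As deposited Ndufa4 was lower and its relative AA467197 higher after LPS+IFNb, while after rescaling only AA467197 passed. Ndufa4, named for complex I but a subunit of complex IV, was at 239 and 202 TPM in saline, 198 and 169 TPM after LPS, 162 and 178 TPM after IFNb and 125 and 146 TPM after LPS+IFNb, a change of -0.70 ± 0.14 in the last (adjusted p = 0.00338 by limma, rescaled 0.03). AA467197, which is not in the set and encodes the Ndufa4-like protein known to take its place in inflammation, was at 14.6 and 9.14 TPM in saline, 356 and 362 TPM after LPS, 429 and 393 TPM after IFNb and 1190 and 959 TPM after LPS+IFNb. The groups of AA467197 did not overlap, and it rose by 4.84 ± 0.20, 5.03 ± 0.20 and 6.41 ± 0.20 (adjusted p = 1.79e-06 by limma in the last, rescaled 7.11). In saline Ndufa4 was the higher of the pair, and in every treated library AA467197 was. Ndufa4l2, the hypoxia form, stayed at 1.02 to 4.16 TPM with libraries of a group differing as much as groups.

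Genes of the pathway outside the set were mostly lower as deposited, with exceptions. All 8 complex II genes, subunits and assembly factors, were lower after LPS+IFNb (3 rescaled), beside 54.1% of all genes (25.2% rescaled), led among its subunits by the flavoprotein Sdha (326 and 312 TPM in saline, 121 and 147 TPM after LPS+IFNb, -1.25 ± 0.11, rescaled -0.52 and passing), with Sdhb at -0.98 ± 0.13, Sdhc at -0.64 ± 0.12 and Sdhd at -0.77 ± 0.09. Cycs, cytochrome c, rose from 7.92 and 6.92 TPM to 14.3 and 14.0 TPM after LPS, 31.6 and 33.1 TPM after IFNb and 31.0 and 28.8 TPM after LPS+IFNb (0.85, 1.99 and 1.88, rescaled 1.26, 2.33 and 2.55). Most TPM of this sequence lay in its copies Gm10108 (92.3 to 124 TPM in saline, 517 to 581 TPM after LPS+IFNb) and Gm10053 (42.3 to 58.0 and 201 to 217 TPM). Cyc1, cytochrome c1 of complex III, was at -0.44 ± 0.12 (adjusted p = 0.0128 by limma, rescaled 0.28).

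Assembly factors outside the symbol rule included larger single changes. After LPS+IFNb 7 of 9 further complex I assembly genes were lower (4 rescaled, with 2 higher), 4 of 5 for complex III (3 rescaled, 1 higher) and 14 of 22 for complex IV with 4 higher (5 and 6 rescaled). Over all genes 54.1% were lower and 15.2% higher, and rescaled 25.2% and 27.4%, so the complex IV count is near the share of all genes. Tmem126b, a complex I assembly factor, went from 30.2 and 27.4 TPM to 5.58 and 4.26 TPM (-2.34 ± 0.18, rescaled -1.67), and Uqcc3, which stabilises cytochrome b, from 25.0 and 24.2 TPM to 5.42 and 5.66 TPM (-1.97 ± 0.13, rescaled -1.30). Sco1, a copper chaperone of complex IV, rose from 8.24 and 11.6 TPM to 48.5 and 61.3 TPM (2.37 ± 0.23, rescaled 3.06). Of 78 mitochondrial ribosome genes 66 were lower and 3 higher (18 and 10 rescaled), with a median of -0.83 against -0.61 over all genes. The rescaled share of lower ribosome genes is near that of all genes.

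Among 22 genes of mitochondrial transcription and RNA 17 were lower and 2 higher after LPS+IFNb (6 and 4 rescaled), beside 54.1% and 15.2% of all genes (25.2% and 27.4% rescaled). Tfam, which packages and transcribes mitochondrial DNA, was at 44.5 and 41.8 TPM in saline and 32.8 and 25.3 TPM after LPS+IFNb (-0.56 ± 0.14, adjusted p = 0.0117 by limma, rescaled 0.15). Pnpt1, an interferon-induced RNA exonuclease of mitochondria, rose from 23.3 and 19.3 TPM to 55.4 and 50.8 TPM after LPS, 129 and 123 TPM after IFNb and 95.8 and 94.6 TPM after LPS+IFNb (1.28, 2.52 and 2.12). Both groups given IFNb were above LPS, which was above saline. Of 11 regulators 3 were higher and 5 lower (4 and 3 rescaled), with Hif1a, the hypoxia-inducible factor, at 2.43 ± 0.07. Ppargc1a, a coactivator of respiratory genes, was not tested at 0 to 0.864 TPM, and Ppargc1b was at 0.06 ± 0.32.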

How the data were processed

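Each of the 8 libraries came as a file in which the authors deposited TPM for 88198 transcripts. The submitters' processing notes name kallisto and mm10; version, options and transcript set were not given in the sources used here, and the labels' protocol names a TruSeq kit and total RNA. GENCODE M21 (GRCm38) matched 86119 transcripts; the other 2079 held 1.01% to 1.95% of TPM and were left out. TPM was summed per gene. Groups and replicate numbers came from sample titles. limma 3.58.1 in R 4.3.3 (limma-trend, 1 mean per group over all 8 libraries, no block) was fitted to log2(TPM + 1), two-sided, with Benjamini-Hochberg adjustment over 13009 genes, and was tested on simulated data. Groups of 2 have 4 residual degrees of freedom in all and are too small for an outlier test. Near-copies were found with blast 2.17.0. The NRF1 motif was shortened by 1 base after a first search had been seen.

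Genes were named by a rule: per comparison up to 4 rises and 4 falls averaging 3 or more in log2(TPM + 1), all mitochondrial genes, central subunits, tissue isoforms and genes against the common direction. The values of 1 central subunit are not reported here. Outside the set up to 4 genes per list and direction by adjusted p, and a fixed few, were named. The genes, lists and tests were chosen with earlier results of these data known. Alternatives were median-ratio and upper-quartile scaling, rescaling to nuclear protein-coding genes, a pseudocount of 0.1, no filter, a minimum of 5 TPM, only the groups compared, a replicate block, protein-coding transcripts only, an adjusted p under 0.01, each library left out, and, added after seeing the data, near-copies added to their genes.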

Additional observations from a re-analysis of the deposited data

How the results depend on the processing

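With median-ratio scaling the number of changed genes went from 42 to 8 (6 higher, 2 lower) in LPS against saline, from 50 to 14 (8 and 6) in IFNb against saline, from 84 to 21 (12 and 9) in LPS+IFNb against saline, from 44 to 5 (2 and 3) in LPS+IFNb against LPS and from 35 to 3 (1 and 2) in LPS+IFNb against IFNb. As deposited all but 1 of these calls in the first 3 comparisons were lower. With near-copies added as well (chosen after seeing the data) they were 8, 13, 21, 6 and 3. Upper-quartile scaling gave 15, 26, 38, 13 and 5. At an adjusted p under 0.01 the counts were 18, 23, 13 and 6 in LPS against saline, IFNb against saline, LPS+IFNb against LPS and LPS+IFNb against IFNb, and 5 in place of 18 in LPS against IFNb. With no filter LPS+IFNb against LPS had 28 and LPS against IFNb 11.

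Leaving out 1 library gave 21 to 44, 26 to 50, 71 to 83, 14 to 48, 3 to 36 and 7 to 20 changed genes in these 6 comparisons and 0 to 2 in the interaction (0 otherwise). The lone library is then assumed to vary like the other groups. The log2 ratio of nuclear to mitochondrial TPM ranged over -1.53 to -1.44 in saline, -1.65 to -1.54 with LPS, -1.34 to -1.31 with IFNb and -1.49 to -1.48 with LPS+IFNb.

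Replicate numbers did not pair the libraries: deviations of same-numbered libraries correlated at -0.156 to 0.141. With the number as a replicate block the counts were 36, 46, 82, 37, 27, 15 and 0.

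For saline, LPS, IFNb and LPS+IFNb that log2 ratio was -2.13, -2.21, -1.97 and -2.16 with protein-coding transcripts only, -4.29, -4.42, -4.12 and -4.27 as a difference of medians, and -1.17, -1.25, -1.07 and -1.20 with near-copies added. Without assembly factors and Atp5s LPS+IFNb had -1.49.

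Of 75 gene results 24 kept sign and call throughout and 16 changed sign somewhere. Median-ratio scaling turned mt-Co1 (0.158), mt-Co2 (0.154) and mt-Nd3 (0.114) in IFNb against saline and, in LPS+IFNb against saline, Atp5b (0.421), Atp5f1 (0.705), Atp5g3 (0.327), Cox5a (0.689), Cox5b (0.342), Cox6a1 (0.388), Cox6c (0.446), Cox7a2 (0.66), Cox8a (0.35), Ndufa1 (0.304), Ndufa4 (0.034) and mt-Co1 (0.476). Upper-quartile scaling turned Atp5b (0.012), Atp5f1 (0.297), Cox5a (0.281), Cox6c (0.037), Cox7a2 (0.253) and mt-Co1 (0.065). Ndufs4 turned to -0.022 with nuclear protein-coding genes rescaled. Leaving out 1 library gave -0.106 to 0.19 for Ndufs4, -0.158 to 0.105 for Atp5f1, -0.104 to 0.019 for Cox5a and -0.163 to 0.023 for Cox7a2. TPM holds no depth, so counting error is unknown and low genes such as Atp5s, Ndufaf7 and Cox6a2 are least precise. The cause of these shifts was not tested.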
